A study of Homo sapiens with 8 samples.

Results

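The genes of the endoplasmic reticulum (ER) folding machinery and of the unfolded protein response were followed in CAKI1 cells, an established human renal carcinoma line, after stimulation with iron-loaded holo-lipocalin-2 (hLcn-2). They were taken by symbol from a list of 36 genes, by a rule that uses no measured value, although earlier results of these data were known when the list was drawn up. The deposited table held a row for 35 of them among its 16782 genes, and DERL3 was not analysed here. All 35 passed the filter on low values (a read count scaled to library size, CPM, of at least 1 in at least 2 samples), as did 15593 genes in all.

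The study compared 4 control samples of unstimulated cells with 4 samples given 5 µg/mL recombinant human Lcn-2, loaded with iron, for 24 h. Cells of both groups had been starved of serum for 24 h beforehand. Messenger RNA was read at its 3′ end, and each value is a normalized count, on the scale of CPM after a further scaling by the authors. The model is 1 cell line at 1 time point, the protein was made in bacteria and freed of endotoxin, and the controls analysed here received no iron-free Lcn-2, so that the iron, the protein and its preparation cannot be told apart. Samples carry the numbers 1 to 4 in each group, but the labels do not say that they came from separate cultures, and p-values then measure only the spread between these samples.

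The ER folds and modifies secreted and membrane proteins. Chaperones hold nascent chains, oxidoreductases form disulfide bonds, lectins inspect the sugars of glycoproteins, and a degradation route (ER-associated degradation, ERAD) sends chains that fail to fold to the proteasome. When unfolded proteins accumulate, 3 sensors respond: ATF6 is cut free as a transcription factor, IRE1 (ERN1) splices the mRNA of XBP1, and PERK (EIF2AK3) phosphorylates eIF2α, which lowers translation but favours ATF4. Cleavage, splicing and phosphorylation leave no trace in a count of 3′ ends, so the data speak of mRNA levels alone.

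The promoters of these genes are known for a composite element, the ER stress response element (ERSE), in which NF-Y binds CCAAT and ATF6 or XBP1 binds CCACG, with 9 free bases between them. RefSeq promoter windows (GRCh38.p14, 250 bases before to 50 after the start site) existed for 33 of the 35 genes. Both strands were searched for ERSE, for ERSE-II (ATTGG, 1 free base, CCACG), for the unfolded protein response element TGACGTGG and for the ATF4 element TGATGNAAT. ERSE stood in the windows of 8 of the 33 genes (24.2%), against 25 of all 27305 genes with a window (0.0916%). ERSE-II stood in 3 (9.09%), against 19 of all genes (0.0696%). Since the elements were first described in genes of this family, these shares are a description and no independent result. The ERSE of each gene is shown with 8 flanking bases, fewer at the window's edge, in the strand that reads CCAAT first, and capitals mark the element.
HSPA5, chr9:125241391-125241409: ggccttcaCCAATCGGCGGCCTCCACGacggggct
HSP90B1, chr12:103930216-103930234: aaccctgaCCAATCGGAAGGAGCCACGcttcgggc
HSP90B1, chr12:103930321-103930339: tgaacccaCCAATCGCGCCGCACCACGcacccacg
CALR, chr19:12938384-12938402: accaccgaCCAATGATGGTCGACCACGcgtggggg
CANX, chr5:179698778-179698796: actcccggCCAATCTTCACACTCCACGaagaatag
CRELD2, chr22:49918554-49918572: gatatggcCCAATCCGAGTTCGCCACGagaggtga
ERO1B, chr1:236282183-236282201: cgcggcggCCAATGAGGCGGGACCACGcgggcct
PDIA6, chr2:10812853-10812871: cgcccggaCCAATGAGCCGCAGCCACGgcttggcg
XBP1, chr22:28800603-28800621: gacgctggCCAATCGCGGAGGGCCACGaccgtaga

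The ERSE-II stretches of HERPUD1, HYOU1 and SDF2L1 share the CCACG core but place it next to an inverted CCAAT.
HERPUD1, chr16:56932025-56932035: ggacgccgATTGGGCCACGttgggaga
HYOU1, chr11:119057274-119057284: gcgtactcATTGGACCACGtcccaggc
HYOU1, chr11:119057380-119057390: ggcctgggATTGGACCACGtcacgggg
SDF2L1, chr22:21642114-21642124: gggttttgATTGGTCCACGcttccgag

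TGACGTGG stood in 2 of the 33 windows, those of DNAJC10 and of HYOU1, where it overlaps an ERSE-II, against 253 of all genes (0.927%). TGATGNAAT stood in 0 of the 33, against 333 of all genes (1.22%). The windows of DNAJB9 and EDEM1, both among the genes with the larger differences, held none of the 4 elements, only the CCACG core (read as CGTGG on the other strand), which 11494 genes (42.1%) and 25 of the 33 also held. The absence of a match says only that these letters were not in this window. Both windows are shown beside that of HSPA5, with the ERSE or the cores in capitals.
HSPA5, chr9:125241294-125241593, minus strand: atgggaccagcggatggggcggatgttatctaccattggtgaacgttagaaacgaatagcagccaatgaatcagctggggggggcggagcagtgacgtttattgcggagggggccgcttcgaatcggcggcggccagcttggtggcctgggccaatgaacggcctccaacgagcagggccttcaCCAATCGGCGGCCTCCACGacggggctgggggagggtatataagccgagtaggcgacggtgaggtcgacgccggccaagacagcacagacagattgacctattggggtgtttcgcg
DNAJB9, chr7:108569624-108569923, plus strand: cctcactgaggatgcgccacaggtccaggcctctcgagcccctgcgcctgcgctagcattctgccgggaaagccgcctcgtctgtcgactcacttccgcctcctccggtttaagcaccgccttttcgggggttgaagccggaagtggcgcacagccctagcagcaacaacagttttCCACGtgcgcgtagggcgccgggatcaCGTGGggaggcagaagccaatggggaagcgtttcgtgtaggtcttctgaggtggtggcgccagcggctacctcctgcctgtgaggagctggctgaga
EDEM1, chr3:5187457-5187756, plus strand: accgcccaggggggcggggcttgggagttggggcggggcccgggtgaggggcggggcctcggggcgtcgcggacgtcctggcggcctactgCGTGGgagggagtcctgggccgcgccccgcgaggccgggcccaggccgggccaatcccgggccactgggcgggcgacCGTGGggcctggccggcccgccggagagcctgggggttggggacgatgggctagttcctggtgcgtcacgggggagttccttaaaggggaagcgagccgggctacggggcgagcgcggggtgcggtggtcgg

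The libraries held between 1501563 reads (control 4) and 13953090 reads (control 1), so that low values are coarsest in control 4, where 3 reads are worth 1.98. Mitochondrial transcripts took 12.7% of reads in control 3 and 13.8% in hLcn-2 sample 3, against 7.37% to 8.83% in the other 6 libraries. Of the renal epithelial markers, 6 of 8 had a row and summed to 365 to 468 in controls and 366 to 448 in hLcn-2 samples, with PAX8 at 201 to 245. KRT19 and GGT1 had no row. Markers of leukocytes (1 of 4 with a row), endothelium (0 of 3) and fibroblasts (1 of 3) summed to at most 6.58.

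Most of the 35 genes had higher mean levels after hLcn-2, by small amounts. The log2 fold change (hLcn-2 minus control, on log2(normalized count + 1)) was above 0 in 29 genes and below 0 in 6, while 50.2% of all genes tested were above 0. Its median was 0.20, with a range of -0.19 to 0.87, beside a median of 0.00083 over all genes tested. In the same-numbered pairs the median of the 35 was 0.22, 0.17, 0.14 and 0.31, against -0.016, 0.0076, -0.045 and 0.038 over all genes. Every pair thus placed the middle of the list above that of the transcriptome, and pair 4, with the shallowest control, gave the highest value. In bulk RNA a larger share of responding cells and more RNA in each cell cannot be told apart.

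**Figure D1:**
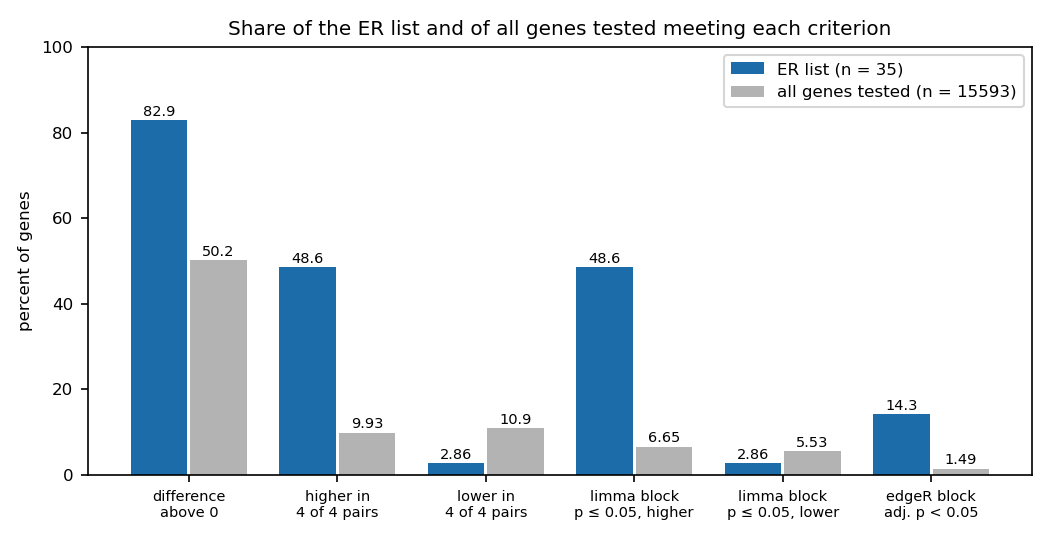
Share of the 35 genes (with symbol) and of all 15593 genes tested that met each criterion, in percent: the sign of the difference, the direction over 4 pairs, the unadjusted p in limma and the adjusted p in edgeR, both with the replicate block. The genes of the ER list (blue) stand at 48.6% and all genes at 9.93% for a higher value in all 4 pairs.

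Tested without regard to the numbering of the samples, none of these genes passed: limma called 0 of 35 and 0% of all genes at an adjusted p under 0.05, and at an unadjusted p of 0.05 or less it counted 2 of 35 beside 2.28% of all genes (355). Same-numbered samples deviated together, and with the number as a block limma called 0 of 35 beside 0.282% of all genes (44), with a lowest adjusted p of 0.0560. Without the intensity trend, limma with the block called 0 genes (1567 at an unadjusted p of 0.05 or less). On the recovered reads with the block, edgeR's quasi-likelihood test called 5 of 35 beside 1.49% of all genes (233), all 5 higher, where 1.12% of all genes were called higher. DESeq2 with the block called 5 of 35 beside 1.11% (173). Both tools called HSPA5, DNAJB9, EDEM1, PDIA4 and EIF2AK3. Without pairs 1 to 4 in turn, edgeR with the block called 1 (DNAJB9), 1 (EDEM1), 1 (EDEM1) and 4 of them (all but PDIA4). Its calls over all genes were 61, 45, 105 and 192. DESeq2 called 0, 0, 0 and 3 (HSPA5, DNAJB9 and EIF2AK3), and 16, 31, 84 and 175 over all genes. The loss of pair 1, 2 or 3 thus lowered the calls among these genes and among all genes. Without the block edgeR and DESeq2 called 0 genes, with 324 and 284 genes at an unadjusted p under 0.05. No gene of the 35 was called without the block, under any alternative tried.

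More of these genes were counted before adjustment and by direction over pairs. With the block, limma gave an unadjusted p of 0.05 or less to 17 genes higher (6.65% of all genes tested) and to 1 gene lower (5.53%), PDIA6. All 4 pairs were higher in 17 of the 35, beside 9.93% of all genes, and lower in 1, again PDIA6, beside 10.9%. Among genes with a mean of at least 10 CPM, where 34 of the 35 fell, 17 had such a p and were higher (9.66% of 9017 genes) and 17 were higher in all pairs (12.8%). Leaving out 1 pair at a time left 11 to 16 genes higher at that p, with 14 when pair 3 was left out and 11 when pair 2 was. Of all genes, 8.60% to 14.2% then met that p in either direction. Without the intensity trend, 10 of the 35 were higher and 0 lower at that p, so that PDIA6 no longer met it. Of all genes, 10.0% met it there in either direction. The 4 hLcn-2 values lay wholly above the 4 control values in 3 genes, SEL1L, ERLEC1 and UGGT1, beside 0.891% of all genes. Their two-sided exact permutation p of 0.0286 is the smallest that 70 regroupings allow.

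Spread between controls was larger than the spread between pairs. The SD of the log2 values had a median of 0.23 in controls, and the SD of the 4 pair differences a median of 0.19. It was the smaller in 27 of the 35 genes, against 52.0% of all genes tested. Both of controls 1 and 2 lay above both of controls 3 and 4 in 17 of the 35, where 24.4% of all genes did so, and in hLcn-2 samples this held for 14 of the 35 and 22.4% of all genes. The numbered sets thus differed in these genes besides the treatment. Samples 1 and 2 also held more reads than samples 3 and 4 in both groups. Controls 1 to 4 held 13953090, 12634366, 5799151 and 1501563 reads. The hLcn-2 samples 1 to 4 held 11341137, 6972124, 2088266 and 4619920. Whether depth played a part was not tested.

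**Figure D2:**
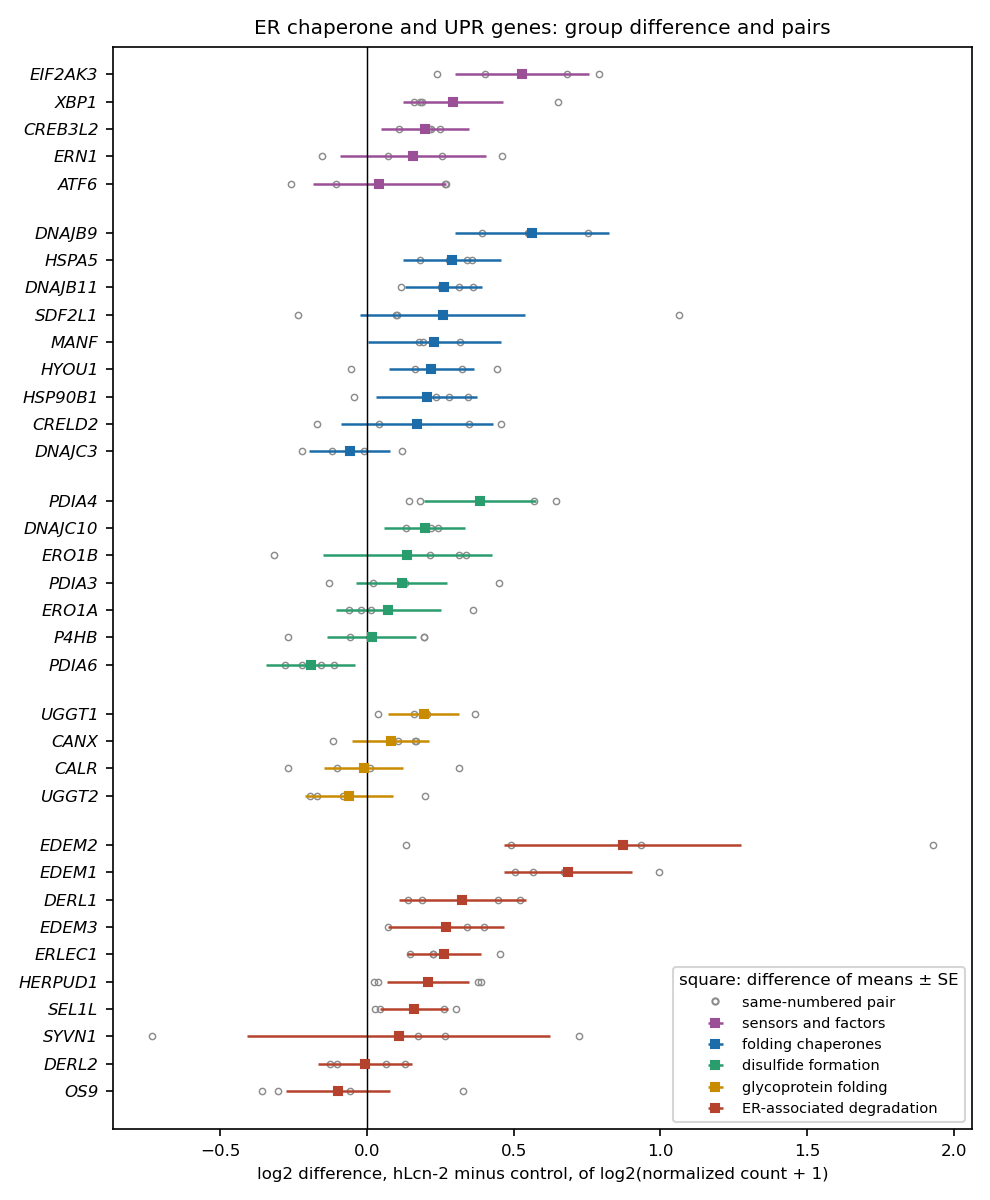
Log2 fold change of each of the 35 genes, hLcn-2 minus control on log2(normalized count + 1), grouped by role. Squares are the difference of means with its standard error in limma without the block, and open circles are the same-numbered pairs. EDEM2 stands highest on this scale at 0.87 (0.42 without control 4), with a pair 4 value of 1.93, and PDIA6 lowest at -0.19 with all 4 pairs below 0.

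All 5 sensors and factors had a log2 fold change above 0, with a median of 0.20. Each standard error here and below is that of limma without the block, unless stated. P-values given with the block come from other fits. EIF2AK3 (PERK, ENSG00000172071, chr2:88556741-88691518) had normalized counts of 33.2, 43.0, 21.9 and 29.0 in controls 1 to 4 and 54.0, 57.2, 38.5 and 34.4 in hLcn-2 samples 1 to 4. Its hLcn-2 samples 1 and 2 stood above every control, while samples 3 and 4 overlapped the controls. It was 1.44-fold higher, with a log2 difference of 0.53 (standard error 0.23), and rose with the block in edgeR (adjusted p = 0.0162) and DESeq2 (0.0229) but not in limma (0.0849). XBP1, whose spliced mRNA encodes the IRE1 arm's factor and which is itself a target of ATF6, had 77.6, 76.1, 56.1 and 53.3 in controls 1 to 4 and 88.4, 85.1, 63.7 and 84.4 in hLcn-2 samples 1 to 4. Each hLcn-2 sample exceeded the control of its number, by 0.19, 0.16, 0.18 and 0.65 on the log2 scale, and the log2 fold change was 0.29 (standard error 0.17), with a limma adjusted p of 0.265 with the block. CREB3L2, an ER-resident relative of ATF6, had 134, 181, 133 and 167 in controls 1 to 4 and 156, 211, 158 and 180.5 in hLcn-2 samples 1 to 4. Its groups overlapped, since control 2 was above hLcn-2 samples 1, 3 and 4, but each pair was higher, with a log2 difference of 0.20 (standard error 0.15) and an adjusted p of 0.310 in limma with the block.

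The remaining sensors, ATF6 and ERN1, did not go the same way in all 4 pairs. ATF6 itself (chr1:161766298-161977574) had 44.5, 48.2, 67.5 and 31.6 in controls 1 to 4 and 41.3, 58.2, 56.3 and 38.3 in hLcn-2 samples 1 to 4. Pairs 1 and 3 were lower and pairs 2 and 4 higher, and its log2 fold change of 0.043 (standard error 0.23) changed sign when control 4 was left out (-0.14). ERN1, which encodes IRE1, had 14.8, 17.0, 21.0 and 9.22 in controls 1 to 4 and 15.6, 20.4, 18.8 and 13.0 in hLcn-2 samples 1 to 4. Its log2 fold change was 0.16 (standard error 0.25), with 3 of 4 pairs higher, and -0.054 without control 4.

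Folding chaperones were higher in 8 of 9 genes, with a median log2 fold change of 0.23. HSPA5 (BiP, ENSG00000044574, chr9:125234853-125241382), the Hsp70 of the ER lumen and the protein that holds the sensors inactive, had normalized counts of 1261, 1475, 1069 and 1106 in controls 1 to 4 and 1531, 1889, 1212 and 1401 in hLcn-2 samples 1 to 4. Each hLcn-2 sample was above the control of its number by 0.28, 0.36, 0.18 and 0.34 on the log2 scale, yet hLcn-2 samples 3 and 4 lay below control 2. It was 1.22-fold higher, with a log2 difference of 0.29 (standard error 0.17), and rose with the block in edgeR (adjusted p = 0.0344) and DESeq2 (0.0288) but not in limma (0.118). Without hLcn-2 sample 2 the difference was 0.17.

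DNAJB9 (ERdj4, chr7:108569867-108574850), a co-chaperone of BiP induced by the IRE1 arm, had 30.1, 32.6, 27.0 and 16.5 in controls 1 to 4 and 39.9, 55.6, 40.0 and 24.6 in hLcn-2 samples 1 to 4. In 3 of the 4 hLcn-2 samples it stood above every control, and sample 4, at 24.6, exceeded control 4 at 16.5. The gene rose 1.48-fold, a log2 difference of 0.56 (standard error 0.26), with adjusted p of 0.0117 in edgeR, 0.0169 in DESeq2 and 0.0569 in limma, all with the block. Its reads numbered 25 to 448 per library, and without control 4 the difference was 0.36.

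DNAJB11 (ERdj3), which feeds substrates to BiP, had 137, 139, 122 and 129.7 in controls 1 to 4 and 170.5, 179, 132 and 155 in hLcn-2 samples 1 to 4. Every pair was higher and only hLcn-2 sample 3 fell among the controls, with a log2 difference of 0.26 (standard error 0.13) and an edgeR adjusted p of 0.108 with the block. Its last exon is overlapped on the same strand by the gene model ENSG00000283149, so reads could be shared. MANF, a secreted ER protein that binds BiP, had 52.2, 51.7, 34.9 and 32.9 in controls 1 to 4 and 61.5, 64.7, 40.0 and 37.4 in hLcn-2 samples 1 to 4. It was higher in all 4 pairs by 0.18 to 0.32, but controls 1 and 2 exceeded hLcn-2 samples 3 and 4, and the edgeR adjusted p was 0.235 with the block. Its log2 fold change of 0.23 was 0.10 without hLcn-2 sample 2.

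HSP90B1 (GRP94), the Hsp90 of the ER, had 604, 667, 446 and 439 in controls 1 to 4 and 733, 648, 525 and 558 in hLcn-2 samples 1 to 4. Its pair 2 value was -0.04 and the other 3 pairs were higher by 0.23 to 0.34, and the edgeR adjusted p was 0.232 with the block. SDF2L1, a BiP-associated protein, had 15.8, 16.1, 11.5 and 5.93 in controls 1 to 4 and 13.3, 17.3, 12.3 and 13.5 in hLcn-2 samples 1 to 4. Control 4 held 9 reads of it, and its log2 fold change of 0.26 became -0.027 without that library. The other chaperones had log2 fold changes of 0.22 (HYOU1, an exchange factor of BiP, 3 of 4 pairs higher), 0.17 (CRELD2, a disulfide isomerase-like protein, 3 of 4) and -0.058 (DNAJC3, the P58IPK co-chaperone, 1 of 4). None of them passed a test.

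**Figure D3:**
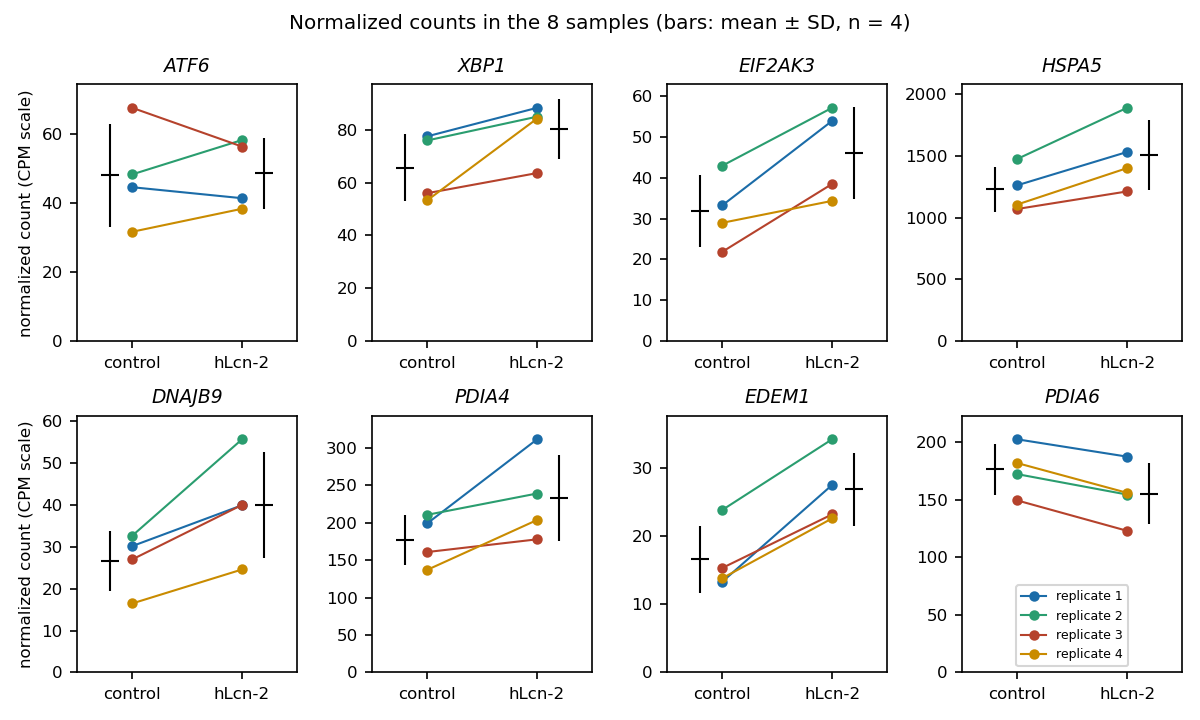
Normalized counts in each of the 4 control and 4 hLcn-2 samples, joined by sample number, for ATF6, XBP1, EIF2AK3, HSPA5, DNAJB9, PDIA4, EDEM1 and PDIA6, with the mean and SD of each group (n = 4). The hLcn-2 points of HSPA5 lie between 1212 and 1889 and those of the controls between 1069 and 1475, so that the groups overlap while each HSPA5 line goes up.

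Disulfide formation was mixed, with 6 of 7 genes above 0 and a median of 0.12. PDIA4 (ERp72, chr7:149003062-149028662), a protein disulfide isomerase, had 199, 210.5, 161 and 137 in controls 1 to 4 and 311, 239, 178 and 204 in hLcn-2 samples 1 to 4. hLcn-2 samples 1 and 2 stood above every control, and samples 3 and 4 within the range of the controls. It was 1.31-fold higher, with a log2 difference of 0.38 (standard error 0.19), and rose with the block in edgeR (adjusted p = 0.0383) and DESeq2 (0.0422) but not in limma (0.120). Without hLcn-2 sample 1 the difference was 0.23. DNAJC10 (ERdj5), a reductase that opens disulfides for degradation, had 199.8, 229, 188 and 169 in controls 1 to 4 and 232, 262, 206 and 199 in hLcn-2 samples 1 to 4. All 4 pairs were higher by 0.13 to 0.24, with an edgeR adjusted p of 0.230, and its last exon holds the same-strand pseudogene RPL31P15.

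PDIA6, another isomerase of the family, had lower values. They were 202, 172, 149 and 182 in controls 1 to 4 and 187, 154, 123 and 156 in hLcn-2 samples 1 to 4. All 4 pairs were lower, with a log2 difference of -0.19 (standard error 0.15), but the groups overlapped and the adjusted p was 0.332 in limma and 0.355 in edgeR with the block. Without hLcn-2 sample 3 the difference was -0.085. On the opposite strand its last exon overlaps ATP6V1C2, and the last exons of PDIA3, P4HB, CALR, HYOU1, SYVN1, OS9 and ERO1A also overlap an opposite-strand gene (8 of the 35 in all). Whether the reads were counted by strand is not given in the sources used here. PDIA3 (0.12), ERO1B (0.14), ERO1A (0.074) and P4HB (0.016) had log2 fold changes below those of PDIA4, with 2 or 3 of 4 pairs higher, and passed no test. ERO1A and ERO1B encode the oxidases that recharge the isomerases.

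Glycoprotein folding had the lowest median of the 5 roles, 0.035, with 2 of 4 genes above 0. UGGT1, which re-glucosylates misfolded glycoproteins for another round with the lectins, had 101, 90.8, 99.6 and 93.5 in controls 1 to 4 and 104, 102, 115 and 121 in hLcn-2 samples 1 to 4. Its lowest hLcn-2 value, 101.6 in sample 2, was just above its highest control value, 101.4 in control 1, so the groups did not overlap. The log2 fold change was 0.19 (standard error 0.12), with an adjusted p of 0.390 in limma and 0.360 in edgeR with the block. The lectin chaperones CANX and CALR had log2 fold changes of 0.081 and -0.011, and the paralog UGGT2 of -0.061, none of which passed a test.

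Components of ERAD were higher in 8 of 10 genes, with a median of 0.23. EDEM1 (chr3:5187646-5219958), which trims mannose from glycoproteins to mark them for degradation and is a target of XBP1, had 13.3, 23.9, 15.3 and 13.8 in controls 1 to 4 and 27.5, 34.2, 23.2 and 22.6 in hLcn-2 samples 1 to 4. Each hLcn-2 sample exceeded the control of its number, by 0.99, 0.50, 0.57 and 0.67 on the log2 scale, and the groups overlapped only because control 2 lay above hLcn-2 samples 3 and 4. EDEM1 rose 1.61-fold, a log2 difference of 0.68 (standard error 0.22), with adjusted p of 0.00792 in edgeR, 0.00966 in DESeq2 and 0.0560 in limma with the block. EDEM2, which starts the trimming, had 10.1, 10.6, 15.2 and 2.63 in controls 1 to 4 and 20.3, 11.7, 21.7 and 12.8 in hLcn-2 samples 1 to 4. Its limma log2 fold change was 0.87 (standard error 0.40), but control 4 held only 4 reads, pair 4 alone differed by 1.93, and without control 4 it was 0.42. In edgeR with the block the log2 fold change was 0.72, with an adjusted p of 0.0642, below the 0.75 of EDEM1. EDEM3, the third paralog, had 64.0, 69.1, 83.0 and 52.7 in controls 1 to 4 and 81.3, 91.4, 100.2 and 55.4 in hLcn-2 samples 1 to 4. It was higher in each pair, by 0.07 to 0.40, with an edgeR adjusted p of 0.111.

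SEL1L and ERLEC1 serve the recognition step. SEL1L, the adaptor of the HRD1 ligase, had 184, 180.4, 213 and 214 in controls 1 to 4 and 221, 223, 219.7 and 218 in hLcn-2 samples 1 to 4. Its control values reached 214 and its hLcn-2 values started at 218, so the groups did not overlap, but pairs 3 and 4 differed by only 0.04 and 0.03. ERLEC1, a lectin that hands glycans to the ligase, had 94.0, 105, 105 and 82.3 in controls 1 to 4 and 110.1, 117, 122 and 113 in hLcn-2 samples 1 to 4. It was higher in all 4 pairs by 0.15 to 0.45, with a log2 difference of 0.26 (standard error 0.13), and adjusted p with the block was 0.234 in limma and 0.171 in edgeR.

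HERPUD1, an ubiquitin-like ER membrane protein that assembles the ligase complex, had 213, 209.6, 271 and 211 in controls 1 to 4 and 277, 275, 279 and 215 in hLcn-2 samples 1 to 4. Control 3 and hLcn-2 sample 4 stood away from the rest of their groups, and pairs 3 and 4 differed by 0.04 and 0.02 against 0.38 and 0.39 in pairs 1 and 2. DERL1, a membrane component of the retrotranslocation channel, had 119.8, 129, 82.0 and 79.0 in controls 1 to 4 and 164, 147, 90.3 and 114 in hLcn-2 samples 1 to 4. All 4 pairs were higher, by 0.14 to 0.52, with an edgeR adjusted p of 0.0802 with the block. SYVN1 (HRD1, the ubiquitin ligase, log2 fold change 0.11), DERL2 (-0.0077) and OS9 (a lectin, -0.098) passed no test, and SYVN1 had 5 reads in hLcn-2 sample 3.

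The arms of the response were then set side by side. In a list drawn up by hand, ATF6 is known for inducing 11 of the genes (HSPA5, HSP90B1, HYOU1, PDIA4, PDIA6, CALR, SDF2L1, MANF, CRELD2, HERPUD1 and XBP1) and the IRE1-XBP1 arm for 12 (DNAJB9, DNAJB11, DNAJC3, DNAJC10, EDEM1, EDEM2, DERL1, DERL2, DERL3, SYVN1, SEL1L and ERLEC1), of which 11 were tested. Many answer to both factors, so the lists are a simplification. The ATF6 side had a median log2 fold change of 0.22, with 9 of 11 above 0 and 5 of 11 higher in all pairs. The XBP1 side had a median of 0.26, with 9 of 11 above 0 and 8 of 11 higher in all pairs, where 50.2% of all genes tested were above 0 and 9.93% higher in all pairs. With the block, limma gave an unadjusted p of 0.05 or less to 6 higher and 1 lower gene of the ATF6 side and to 7 higher genes of the XBP1 side, beside 6.65% higher and 5.53% lower of all genes. With the block, edgeR called 2 of each, HSPA5 and PDIA4 against DNAJB9 and EDEM1, beside 1.12% of all genes called higher. The pair medians ran from 0.14 to 0.34 on the ATF6 side and from 0.13 to 0.45 on the XBP1 side, so that the sides overlapped over the pairs, and their difference was not tested.

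The genes were also divided by the presence of an ERSE or ERSE-II in the window. The 11 genes with one had a median log2 fold change of 0.20 (range -0.19 to 0.29), with 9 of 11 above 0, and the 22 without had 0.20 (-0.098 to 0.87), with 18 of 22. With the block, edgeR called 1 of the 11, HSPA5, and 4 of the 22, all higher, beside 1.12% of all genes.

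The PERK-ATF4 arm, known for amino acid synthesis and the integrated stress response, had a median of 0.33, with 11 of 14 genes above 0 beside 50.2% of all genes tested. This list, too, was drawn up by hand with earlier results of these data known. The study had itself reported CHAC1, CEBPB and SESN2 (printed there as SES2) as higher. The list's median and calls are thus a description and no independent result. Whether PERK acted upstream of ATF4 was not tested. The pair medians of the list were 0.19, 0.34, 0.030 and 0.56. They lay below the XBP1 side in pairs 1 and 3 and above it in pairs 2 and 4. Limma with the block called 2 of the 14, CHAC1 and CEBPB, beside 0.282% of all genes. With the block, edgeR called 5, CHAC1, SESN2, ASNS, CEBPB and CEBPG, beside 1.49%. All were higher, where edgeR called 1.12% of all genes higher. Neither call of limma held without the intensity trend. CHAC1, a glutathione-degrading enzyme, had 41.6, 46.5, 20.8 and 43.5 in controls 1 to 4 and 60.8, 77.1, 38.5 and 73.1 in hLcn-2 samples 1 to 4. Each hLcn-2 sample exceeded its control by 0.54 to 0.86, and the log2 fold change was 0.71 (standard error 0.27 without the block). Limma with the block gave a standard error of 0.0997 and an adjusted p of 0.0206. ASNS, the asparagine synthetase, had 82.1, 87.4, 108 and 68.5 in controls 1 to 4 and 135, 170.0, 113 and 184 in hLcn-2 samples 1 to 4. All 4 hLcn-2 samples lay above every control, with a log2 difference of 0.78 (standard error 0.18), and adjusted p was 0.00557 in edgeR and 0.0569 in limma with the block. CEBPB, a leucine zipper partner of ATF4, had 179.6, 211, 258 and 193 in controls 1 to 4 and 316, 343, 321 and 256 in hLcn-2 samples 1 to 4. It rose in limma with the block (adjusted p = 0.0317).

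ATF4, DDIT3 and TRIB3 passed no test after adjustment. ATF4 itself had 319, 329, 356 and 395 in controls 1 to 4 and 351, 415, 329 and 526 in hLcn-2 samples 1 to 4. It was lower in pair 3 and higher in the other 3, with an adjusted p of 0.410 in limma with the block. DDIT3 (CHOP), the pro-apoptotic target of ATF4, had 16.6, 37.5, 10.2 and 9.22 in controls 1 to 4 and 17.0, 30.4, 14.3 and 23.0 in hLcn-2 samples 1 to 4. Its pairs ran from -0.29 to 1.23. TRIB3, a pseudokinase induced by ATF4 and CHOP, had 134, 145, 72.8 and 101 in controls 1 to 4 and 141, 147, 83.9 and 129 in hLcn-2 samples 1 to 4. Its 4 pairs were higher by 0.03 to 0.34. PPP1R15A (GADD34) and NUPR1, at -0.23 and -0.22, were the lower genes of the arm with an unadjusted p of 0.05 or less in limma with the block. Their adjusted p there was 0.399 and 0.403. In limma without the block their unadjusted p was 0.328 and 0.209.

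The rest of the ER machinery had lower medians over all 8 samples. The ER translocation list (SEC61, signal peptidase and signal recognition subunits) had a median of 0.13 over 17 genes. In limma with the block, 6 of them had an unadjusted p of 0.05 or less, all higher. Of all genes tested, 6.65% were higher and 5.53% lower at that p. With the block, edgeR called SEC61G, beside 1.12% of all genes called higher. Other ER folding enzymes had a median of 0.026 over 21 genes of 23, with 3 higher and 1 lower at that p. There, limma with the block called SERPINH1, the collagen chaperone, beside 0.282% of all genes. The study had already reported that gene as higher. SERPINH1 had 125, 123, 141 and 142 in controls 1 to 4 and 194, 166, 172 and 199 in hLcn-2 samples 1 to 4. Its adjusted p was 0.0419 in limma with the block, a call that was lost without the intensity trend. Other ERAD genes had a median of 0.063 over 19 genes (1 higher), and the other regulators of the response 0.062 over 9 (0 at that p).

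**Figure D4:**
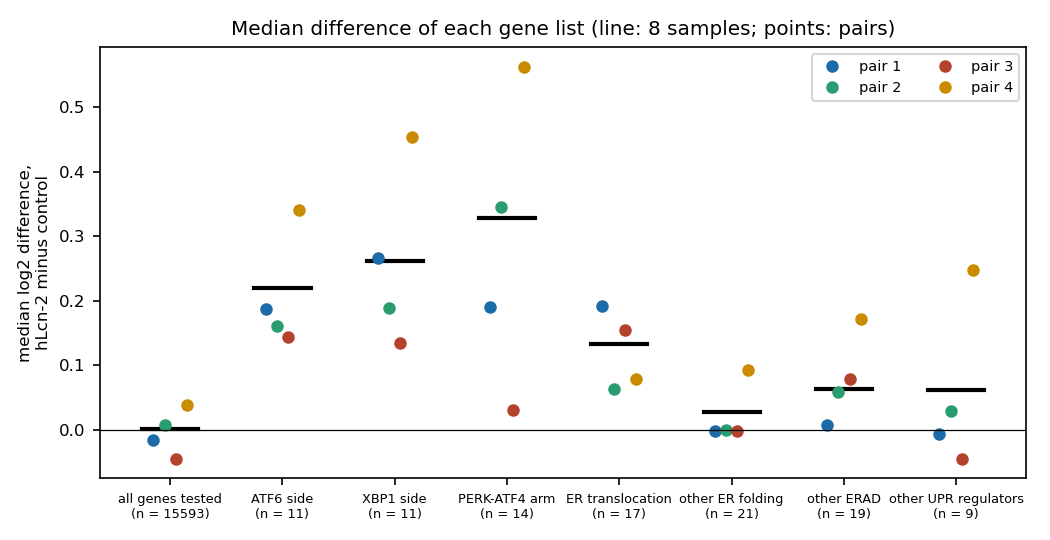
Median log2 difference, hLcn-2 minus control, of each gene list in each of the 4 same-numbered pairs (points) and over all 8 samples (line), beside all genes tested. The PERK-ATF4 arm stands at 0.33, the XBP1 side at 0.26 and the ATF6 side at 0.22, and all genes tested at 0.00083.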

How the data were processed

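RNA of CAKI1 cells was sequenced from QuantSeq 3′ libraries with unique molecular identifiers in 4 control and 4 hLcn-2-treated samples. The authors aligned reads to GRCh38 with STAR, collapsed them by identifier and counted them per gene with HTSeq. The deposited values are a signal, normalized counts on the scale of CPM with a further scaling factor, and no raw count table was used. The annotation release and the strand setting of the counting are not given in the sources used here. All 134256 deposited values were whole multiples of the worth of 1 read (100%, tolerance 0.01 reads), so that reads could be recovered. Depth was 1501563 to 13953090 reads, and intervals were not drawn from it. A decimal comma in 1 cell was taken as a point. Names from GENCODE 44 were found for 2645 of 2810 genes that lacked a symbol.

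Limma 3.58.1 in R 4.3.3, with an intensity trend, was run two-sided on log2(normalized count + 1) for genes that reached 1 CPM in 2 or more samples, with Benjamini-Hochberg adjustment over all genes tested. Alternatives were pseudocounts of 0.1 and 5, omission of the trend or the filter, a minimum mean of 10 CPM, TMM and DESeq2 scaling, the replicate block, models of recovered reads in DESeq2 1.42.0 and edgeR 4.0.16, and leaving out samples. Same-numbered samples were paired by their labels' numbers, and every pair's deviations from the group means correlated across genes (0.31 to 0.61, mean 0.50). Combinations with the block, edgeR and DESeq2 without each pair, and leaving out both libraries of replicate 3, were added after seeing the data. Models were tested on simulated data. Promoters came from RefSeq (GRCh38.p14), and protein sequences were not analysed here.

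Members, lists and roles were chosen with earlier results of these data known. Values in every sample are given for HSPA5, HSP90B1, DNAJB9, SDF2L1, HERPUD1, XBP1, ATF6, ERN1 and EIF2AK3, for each member with an unadjusted p of 0.05 or less in limma with or without the block or with groups that do not overlap, and of the other lists for ATF4, DDIT3, TRIB3, ASNS, CHAC1 and genes called by limma. SEC61G and GANAB were named after their values were seen.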

Additional observations from a re-analysis of the deposited data

Results flagged for a closer look

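In 4 of the 70 groups of 4 samples (35 genes in 2 groups) 1 sample stood far from the other 3, where chance alone gives about 1 in 20 such groups, 3.5 of 70. PDIA3 in hLcn-2 sample 1, at 398, had a gap to its nearest neighbour of 0.846 of the group's range. HERPUD1 in control 3, at 271, had a gap of 0.951 of the range. HERPUD1 in hLcn-2 sample 4, at 215, had a gap of 0.934. XBP1 in hLcn-2 sample 3, at 63.7, had a gap of 0.835.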

How the results depend on the processing

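The 22 named genes gave 858 log2 fold changes under 39 alternatives (24 of them planned). Of these, 818 kept their direction and side of the threshold, 25 passed it in addition and 15 changed sign. The main fit, limma without the block, called none of these genes, so no call could be lost. Adding the block or omitting the trend or filter leaves the limma log2 fold change as it is, so its sign could not change there. The genes called, 0 without the block in limma (355 at an unadjusted p of 0.05 or less), were 44 with the replicate block, 233 in edgeR with the block and 173 in DESeq2 with the block. With the block they were 8 at a pseudocount of 0.1, 45 at 5, 85 with a mean of at least 10 CPM, 67 with TMM, 43 with DESeq2 size factors and 0 without the intensity trend (1567 at an unadjusted p of 0.05 or less), and 13, 3, 0 and 54 without pairs 1 to 4 in turn (edgeR 61, 45, 105 and 192, DESeq2 16, 31, 84 and 175). Of the 35, edgeR and DESeq2 with the block called 5 each, limma with the block 2 (DNAJB9 and EDEM1) both with a mean of at least 10 CPM and with TMM, and without a pair 0 to 1 in limma (EIF2AK3 without pair 4), 1 to 4 in edgeR and 0 to 3 in DESeq2, with the block. Without the block edgeR and DESeq2 called 0 (324 and 284 genes at an unadjusted p under 0.05), as limma did without both libraries of replicate 3 (582). The cause was not tested. ATF6 fell below 0 in edgeR (-0.0011) and DESeq2 (-0.0055), without control 4 (-0.14), hLcn-2 sample 2 (-0.051) or hLcn-2 sample 3 (-0.035), and with the block without pair 2 (limma -0.032, edgeR -0.059, DESeq2 -0.053) or pair 4 (limma -0.032, DESeq2 -0.011). SDF2L1 did so without control 4 (-0.027) or pair 4 (limma -0.010, edgeR -0.030, DESeq2 -0.025) and ERN1 without control 4 (-0.054). Leaving out 1 sample, the ranges were -0.14 to 0.22 for ATF6, -0.027 to 0.41 for SDF2L1 and -0.054 to 0.31 for ERN1, and leaving out 1 pair with limma and the block -0.032 to 0.14 for ATF6 and -0.010 to 0.42 for SDF2L1. Of the other named genes, leaving out 1 sample took HSPA5 as low as 0.17, PDIA4 0.23, DNAJB9 0.36, EDEM2 0.42, DERL1 0.20, DNAJC10 0.12, CREB3L2 0.11 and MANF 0.10, PDIA6 up to -0.085, and gave ranges of 0.11 to 0.31 for HSP90B1 and 0.16 to 0.45 for EDEM3. The median of the ATF6 side ran from 0.12 to 0.31 when 1 sample was left out and from 0.17 to 0.27 when 1 pair was. The median of the 35 ran from 0.13 to 0.27 without 1 sample. Genes with under 10 reads in control 4, such as EDEM2 and SDF2L1, are limited by its depth.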

Other observations

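Besides SERPINH1, edgeR with the block called SEC61G and GANAB among the listed ER genes outside the 35 and the ATF4 arm, both higher. Of all genes tested, 1.12% were called higher. SEC61G, a subunit of the translocation channel, had 233, 299.9, 207 and 139.6 in controls 1 to 4 and 582, 354, 282 and 231 in hLcn-2 samples 1 to 4. Its pair 1 differed by 1.32 on the log2 scale and the other pairs by 0.24 to 0.72, and adjusted p was 0.00792 in edgeR and 0.0560 in limma with the block. GANAB, the catalytic subunit of glucosidase II, had 357, 259, 443 and 272 in controls 1 to 4 and 475, 370.5, 479.9 and 375 in hLcn-2 samples 1 to 4. All 4 pairs were higher, with adjusted p of 0.0193 in edgeR and 0.0743 in limma with the block.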
